A study of Mus musculus with 6 samples.

Results

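Transcripts of 9 genes that define B cells and their precursors were followed in bone marrow cultures with and without midkine. The genes are Pax5, Ebf1, Cd79a, Cd79b, Vpreb1, Vpreb3, Rag1, Blnk and Ms4a1. They were taken by symbol from a table of 15443 gene symbols, and all 9 were present. All cultures started from marrow of C57BL/6J mice, an inbred strain, labelled WT, and were kept for 3 days with FLT3LG at 50 ng/ml, the cytokine that drives dendritic cell (DC) growth from progenitors. The midkine group (replicates 3, 4 and 5) also received the recombinant human protein at 10 ng/ml for those 3 days, and the control group (replicates 1, 2 and 4) did not. Midkine, a heparin-binding growth factor that cells secrete, was given as protein and so adds no RNA. The cells were unsorted marrow, so B cells were a part of a mixture, and the source of each replicate, by mouse or culture, is not labelled. The p-values therefore reflect the spread among these libraries alone, which may be technical.

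B cells arise in the marrow from lymphoid progenitors. The transcription factors Ebf1 and Pax5 commit cells to the lineage and switch on its genes. Rag1 is a subunit of the recombinase that cuts immunoglobulin gene segments. Vpreb1 is a part of the surrogate light chain of the pre-B cell receptor, and Vpreb3 is a related protein of B precursors. Cd79a and Cd79b form the signalling pair of the B cell receptor, Blnk is the adaptor that links that receptor to its downstream enzymes, and Ms4a1 encodes the surface protein CD20 of more mature B cells. Blnk and Rag1 are not limited to B cells: macrophages use Blnk, and Rag1 is also transcribed in other lymphoid precursors.

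The promoters of these genes are printed as background, because several of the genes are known targets of shared B lineage regulators. Whether such regulators bear on the values of these libraries was not tested. The RefSeq table (GRCm38.p6) held 8 promoter windows for 7 of the 9 genes, with 2 for Ebf1. Cd79b and Ms4a1 had no entry. Each window runs from 250 bases before to 50 bases after the start annotated in RefSeq. That start can differ from the GENCODE gene ends given below. The windows of Vpreb1 and Vpreb3 lie inside the GENCODE coordinates of these genes. A script searched both strands for the E-box CAGGTG or CAGCTG, which E proteins such as Tcf3 bind, for the octamer ATTTGCAT of POU factors, and for the palindrome CCCNNGGG of EBF factors. These motifs do not overlap one another. The 5 windows with a match are given below from 5′ to 3′ on the strand of the gene, with the matches in capitals. Their positions are chr7:24897247-24897546 on the plus strand for Cd79a, chr19:40994172-40994471 on the minus strand for Blnk, chr16:16869206-16869505 on the minus strand for Vpreb1, chr10:75948050-75948349 on the plus strand for Vpreb3 and chr2:101649483-101649782 on the minus strand for Rag1.
Cd79a: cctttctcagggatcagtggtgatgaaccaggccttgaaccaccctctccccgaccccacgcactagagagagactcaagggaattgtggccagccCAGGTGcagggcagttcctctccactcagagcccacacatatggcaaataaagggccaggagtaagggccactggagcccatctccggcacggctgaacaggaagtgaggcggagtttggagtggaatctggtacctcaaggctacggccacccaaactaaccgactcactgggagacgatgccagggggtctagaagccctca
Blnk: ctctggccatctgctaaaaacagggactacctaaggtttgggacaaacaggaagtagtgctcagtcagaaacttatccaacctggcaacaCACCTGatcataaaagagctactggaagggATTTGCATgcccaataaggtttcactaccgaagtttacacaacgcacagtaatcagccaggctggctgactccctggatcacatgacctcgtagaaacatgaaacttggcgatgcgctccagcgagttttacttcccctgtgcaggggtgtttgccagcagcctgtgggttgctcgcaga
Vpreb1: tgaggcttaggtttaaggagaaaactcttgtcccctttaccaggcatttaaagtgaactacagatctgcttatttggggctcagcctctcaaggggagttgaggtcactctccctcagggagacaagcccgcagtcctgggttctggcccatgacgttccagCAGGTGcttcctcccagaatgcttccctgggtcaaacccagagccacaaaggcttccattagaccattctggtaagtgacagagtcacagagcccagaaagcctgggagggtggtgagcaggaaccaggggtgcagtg
Vpreb3: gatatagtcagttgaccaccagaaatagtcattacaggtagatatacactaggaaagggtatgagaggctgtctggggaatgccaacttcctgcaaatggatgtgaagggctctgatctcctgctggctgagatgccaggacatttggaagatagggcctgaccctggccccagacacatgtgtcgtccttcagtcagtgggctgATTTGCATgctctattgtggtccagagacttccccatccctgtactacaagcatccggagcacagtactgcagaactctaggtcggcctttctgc
Rag1: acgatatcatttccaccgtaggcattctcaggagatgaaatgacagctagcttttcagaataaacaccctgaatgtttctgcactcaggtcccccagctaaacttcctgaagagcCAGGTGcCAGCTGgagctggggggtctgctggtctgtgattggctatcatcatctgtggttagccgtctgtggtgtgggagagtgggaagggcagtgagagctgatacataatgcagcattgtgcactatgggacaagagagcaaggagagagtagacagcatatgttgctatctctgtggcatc
The E-box stood in 4 of the 8 windows, each of a different gene, against 32.9% of all 32851 windows in the table. Cd79a and Blnk held it, 154 and 160 bases before the start, and so did Vpreb1 at 88 bases. Rag1 held both forms next to each other, 135 and 128 bases before the start. The octamer stood in 2 of the 8 windows, against 1.74% of all windows. These were Vpreb3, 45 bases before the start, and Blnk at 130 bases. The EBF palindrome stood in 0 of the 8 windows, against 13.7% of all windows. A match is a description of these letters and was not tested for binding.

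Libraries held 6042165 to 7233960 recovered reads with midkine and 5985684 to 6415043 without. Midkine 5 stood apart from the other 5 libraries. Across genes, Pearson correlations of log2 values between it and each other library were 0.921 to 0.941, and between the other libraries 0.966 to 0.985. The share of reads from mitochondrial ribosomal RNA was 0.377% in midkine 5 and 4.12 to 4.69% in the other midkine libraries, against 4.91 to 6.16% in controls. Calls are therefore given with and without midkine 5. B cell markers were present in every library. Together the 9 genes had 3554, 2987 and 1943 reads in midkine 3, 4 and 5. They had 1637, 2202 and 1692 reads in control 1, 2 and 4. These reads are not scaled for library size, and midkine 5 was the largest library. In normalized counts the 9 genes summed to 3436, 3153 and 1764 in midkine 3, 4 and 5. The sums were 1679, 2252 and 1669 in control 1, 2 and 4, so midkine 5 lay within the control range. As a share of recovered reads, midkine 5 lay between control 4 and control 1.

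With all 6 libraries, 0 of the 9 genes passed the test, while all 9 had a mean difference above 0, as did 6720 of the 13543 genes tested. The test was limma across 13543 genes, with p-values adjusted by Benjamini-Hochberg at a threshold of 0.05, and it called 0% of all genes higher. An unadjusted p under 0.05 with higher values was reached by 3 of the 9, namely Pax5, Vpreb1 and Cd79b, against 10.4% of all genes. On the recovered reads edgeR called 0 of the 9, against 0.0443% of all genes called higher, and DESeq2 called Pax5 alone higher, against 3.97%. The median log2 fold change of the 9 genes, midkine minus control, was 0.48, beside −0.0040 over all genes tested. Fold changes here are on the log2(normalized count + 1) scale, which understates the change of low genes. The members were chosen with earlier results of these data known, so these counts describe them and do not test the set. In a mixed culture, a higher level from more B cells and one from more RNA per B cell cannot be told apart.

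Without midkine 5, 7 of the 9 genes rose in limma and 0 fell, against 9.86% of all genes called higher. edgeR on the same 5 libraries also called 7 higher, against 10.5% of all genes. The 2 that did not pass were Vpreb1 and Rag1. In midkine 3 and 4, all 9 genes lay above every control, as did 23.8% of genes tested. In midkine 5, 4 genes lay above every control, 3 below every control and 2 within the control range, with no all-gene share computed. Across the 3 midkine and 3 control libraries, 4 genes therefore did not overlap between the groups and were higher, namely Pax5, Cd79b, Vpreb1 and Rag1, against 15.5% of all genes.

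**Figure D1:**
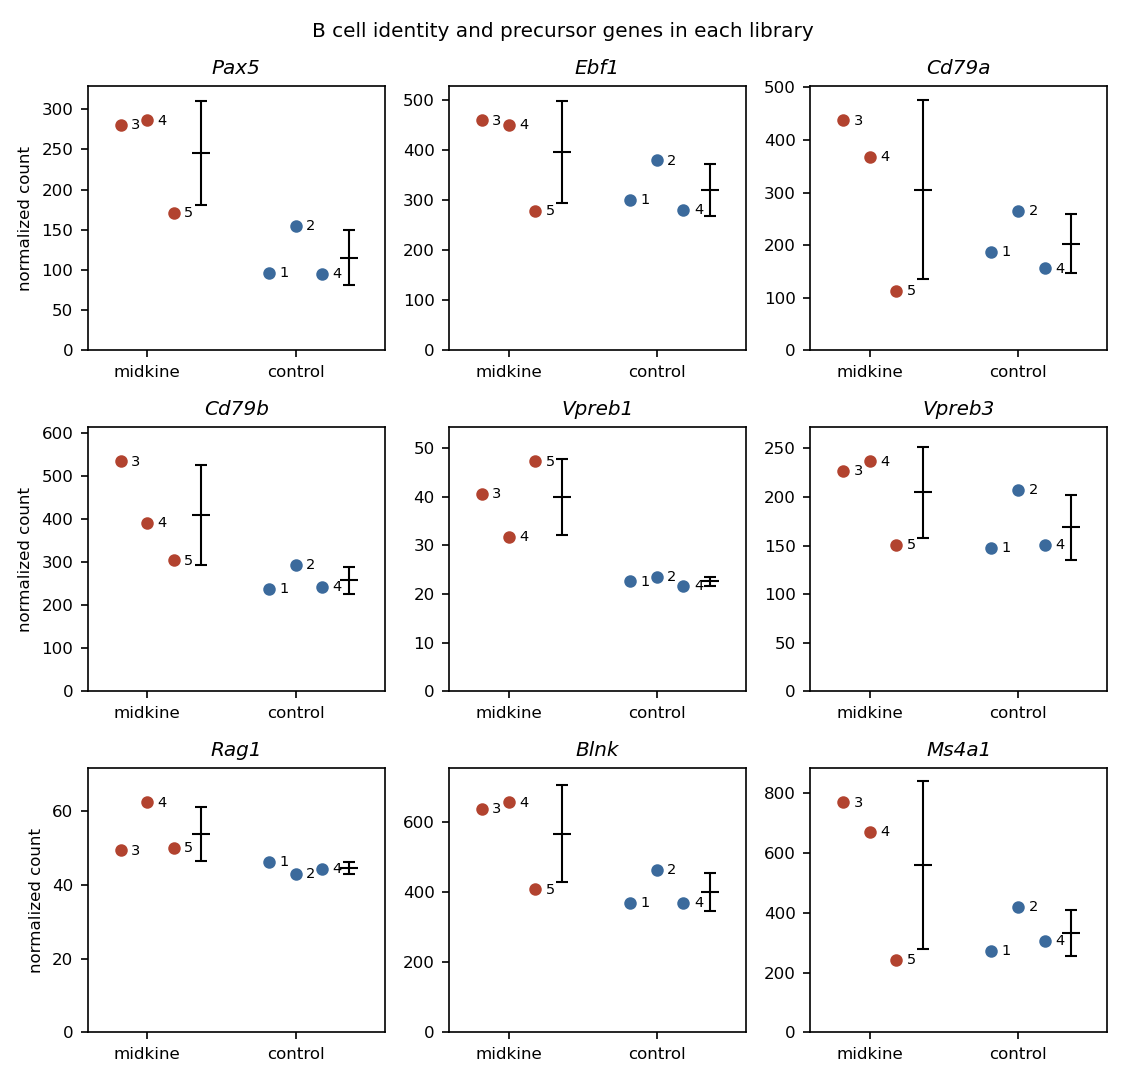
Normalized counts of the 9 genes in each library, with midkine on the left and control on the right of each panel. Points are single libraries with their replicate numbers, and bars are the mean ± SD of 3 libraries. Midkine 3 and 4 lie above every control in all 9 panels, while midkine 5 lies below every control for Ebf1, Cd79a and Ms4a1.

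Among the transcription factors, Pax5 separated the groups and Ebf1 did not. Pax5 (ENSMUSG00000014030.15, chromosome 4, 44524757 to 44710487, minus strand, GRCm38) had 280, 286 and 171 normalized counts in midkine 3, 4 and 5, against 96.4, 154 and 95.7 in control 1, 2 and 4. Its lowest midkine value, that of midkine 5, lay above the highest control, that of control 2. The log2 fold change of Pax5 was 1.08 ± 0.274 SE (limma, adjusted p = 0.1103), and it was 1.32 ± 0.180 SE without midkine 5 (adjusted p = 0.000103). With DESeq2 on all 6 libraries the adjusted p of Pax5 was 0.0150, and with edgeR it was 0.1103. Ebf1 (ENSMUSG00000057098.14, chromosome 11, 44617317 to 45008091, plus strand) had 459, 451 and 279 normalized counts in midkine 3, 4 and 5, against 301, 379 and 281 in control 1, 2 and 4. Midkine 5 was the lowest of all 6 libraries for Ebf1, just under control 4. Its log2 fold change was 0.28 ± 0.231 SE (limma, adjusted p = 0.509), and without midkine 5 it was 0.52 ± 0.130 SE (adjusted p = 0.00974). It was 0.16 without midkine 3 and 0.17 without midkine 4.

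The ratio of Pax5 to Ebf1 did not overlap between the groups. It was 0.611, 0.635 and 0.612 in midkine 3, 4 and 5, against 0.321, 0.407 and 0.340 in control 1, 2 and 4. The scaling between libraries cancels in such a ratio. Midkine 5 lay between the other midkine libraries here, although both genes were lower in it than in them. The pair was chosen after its values were seen, so no test is given. The ratio compares libraries and says nothing of which gene is more abundant.

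The receptor genes differed from each other in midkine 5. Cd79a (ENSMUSG00000003379.7, chromosome 7, 24897381 to 24902197, plus strand) had 437, 367 and 113 normalized counts in midkine 3, 4 and 5, against 188, 265 and 156 in control 1, 2 and 4. Midkine 3 and 4 were the highest libraries and midkine 5 was the lowest. In midkine 5 Cd79a had 124 reads, or 0.00171% of the library (Wilson 95% interval 0.00144 to 0.00204%), against 0.00246% in control 4 (0.00211 to 0.00288%). These intervals do not overlap and cover counting error only. The log2 fold change of Cd79a was 0.41 ± 0.475 SE with all libraries (limma, adjusted p = 0.646) and 1.01 ± 0.171 SE without midkine 5 (adjusted p = 0.000564). It was 0.040 without midkine 3, 0.17 without midkine 4, 0.24 without control 4 and 0.62 without control 2. Its partner Cd79b (ENSMUSG00000040592.11, chromosome 11, 106311341 to 106314762, minus strand) had 534, 392 and 304 normalized counts in midkine 3, 4 and 5, against 237, 295 and 243 in control 1, 2 and 4. All 3 midkine libraries lay above all controls, with midkine 5 closest to control 2. For Cd79b the log2 fold change was 0.63 ± 0.223 SE (limma, adjusted p = 0.188) and 0.83 ± 0.141 SE without midkine 5 (adjusted p = 0.000601).

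Ms4a1, the CD20 gene, followed Cd79a. Ms4a1 (ENSMUSG00000024673.9, chromosome 19, 11249675 to 11266241, minus strand) had 769, 670.3 and 241 normalized counts in midkine 3, 4 and 5, against 272, 421 and 306 in control 1, 2 and 4. The spread among midkine libraries was the widest of the 9 genes in normalized counts, with an SD of 281 around a mean of 560.4, against 333 ± 78.4 in controls. Its log2 fold change was 0.61 ± 0.411 SE (limma, adjusted p = 0.426) and 1.13 ± 0.149 SE without midkine 5 (adjusted p = 7.76e-05). It was 0.30 without midkine 3 and 0.40 without midkine 4. The adaptor gene Blnk (ENSMUSG00000061132.13, chromosome 19, 40928927 to 40994535, minus strand) had 639, 657 and 408 normalized counts in midkine 3, 4 and 5, against 369, 463 and 371 in control 1, 2 and 4. Midkine 5 lay within the control range, under control 2. Blnk had a log2 fold change of 0.48 ± 0.216 SE (limma, adjusted p = 0.269) and 0.70 ± 0.119 SE without midkine 5 (adjusted p = 0.000599).

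The precursor genes Vpreb1, Vpreb3 and Rag1 had different patterns in midkine 5. Vpreb1 (ENSMUSG00000059305.12, chromosome 16, 16868403 to 16870843, minus strand) had 40.6, 31.7 and 47.2 normalized counts in midkine 3, 4 and 5, against 22.6, 23.5 and 21.7 in control 1, 2 and 4. It was the only one of the 9 genes with its highest value in midkine 5, and the groups did not overlap. Each Vpreb1 value rests on 22 to 52 reads. For Vpreb1 the log2 fold change was 0.77 ± 0.243 SE (limma, adjusted p = 0.160) and 0.64 ± 0.265 SE without midkine 5 (adjusted p = 0.101). Vpreb1 lies on the strand opposite Top3b, which averaged 210.3 normalized counts with midkine and 237 in controls, and the strand setting of the counting is not given in the sources used here. Its near-identical copy Vpreb2 had no value of its own, so reads of the pair may be split or lost by the counting.

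Vpreb3 (ENSMUSG00000000903.3, chromosome 10, 75943057 to 75949657, plus strand) had 227, 236 and 151 normalized counts in midkine 3, 4 and 5, against 148, 208 and 151 in control 1, 2 and 4. Midkine 5 lay between control 1 and control 4, which were the lowest. Vpreb3 had a log2 fold change of 0.27 ± 0.232 SE (limma, adjusted p = 0.528) and 0.47 ± 0.153 SE without midkine 5 (adjusted p = 0.0383). That value was 0.15 without midkine 4 and 0.43 without control 2. Rag1 (ENSMUSG00000061311.6, chromosome 2, 101638282 to 101649501, minus strand) had 49.3, 62.3 and 49.9 normalized counts in midkine 3, 4 and 5, against 46.2, 43.0 and 44.4 in control 1, 2 and 4. The groups did not overlap, but the lowest midkine value and the highest control were close together. Its log2 fold change was 0.26 ± 0.201 SE (limma, adjusted p = 0.481) and 0.31 ± 0.210 SE without midkine 5 (adjusted p = 0.333), and it was 0.15 without midkine 4. Exons of Rag1 overlap those of B230118H07Rik on the same strand, which averaged 177 normalized counts with midkine and 188 in controls.

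**Figure D2:**
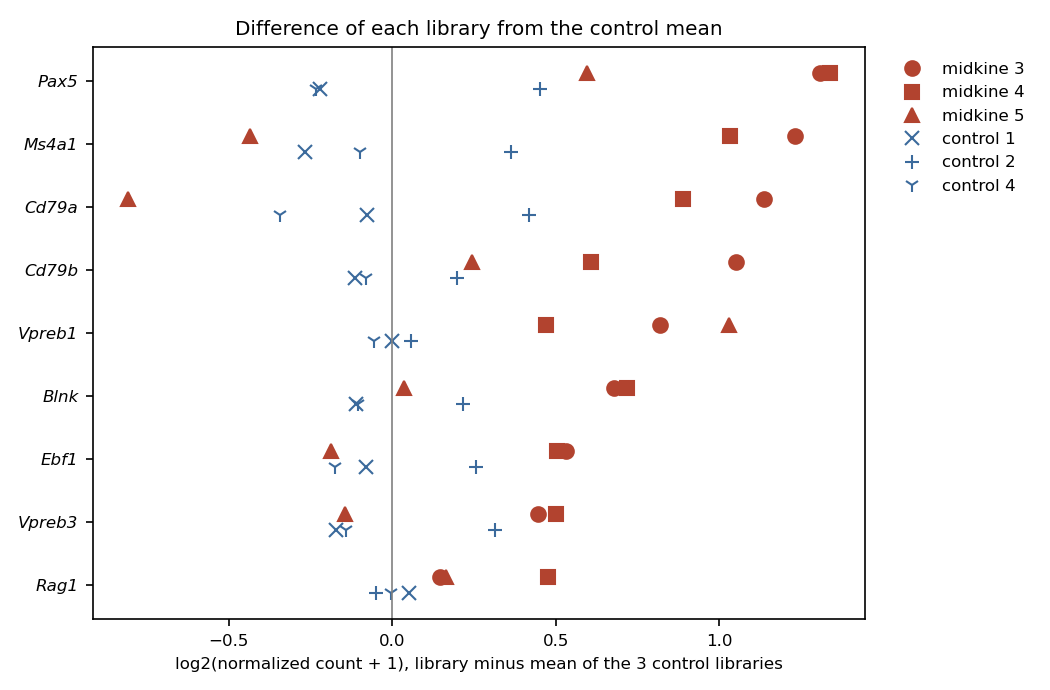
Difference of each library from the mean of the 3 control libraries, in log2(normalized count + 1), for the 9 genes. Red symbols are midkine libraries and blue symbols are controls. Midkine 5 lies at −0.81 for Cd79a and at 1.03 for Vpreb1, and control 2 is the highest control for 8 of the 9 genes.

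Midkine 5 was the lowest midkine library and control 2 the highest control for most of the 9 genes. Relative to the control mean, the 9 genes had a median difference on the log2 scale of 0.82, 0.61 and 0.034 in midkine 3, 4 and 5, against −0.11, 0.26 and −0.10 in control 1, 2 and 4. Midkine 5 was the lowest midkine library for 7 of the 9, and for 43.1% of all genes tested. Control 2 was the highest control for 8 of the 9, with Rag1 as the exception, and for 35.8% of all genes tested. Midkine 3 and 4 were the highest pair for 7 of the 9, the exceptions being Vpreb1 and Rag1. The share over all genes was not computed for this count. Among the 36 pairs of the 9 genes, the Pearson correlation of log2 values over the 6 libraries had a median of 0.816. It was highest between Ebf1 and Vpreb3, at 0.980, and lowest between Cd79a and Vpreb1, at 0.051. The points share libraries and groups, so these are descriptions.

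**Figure D3:**
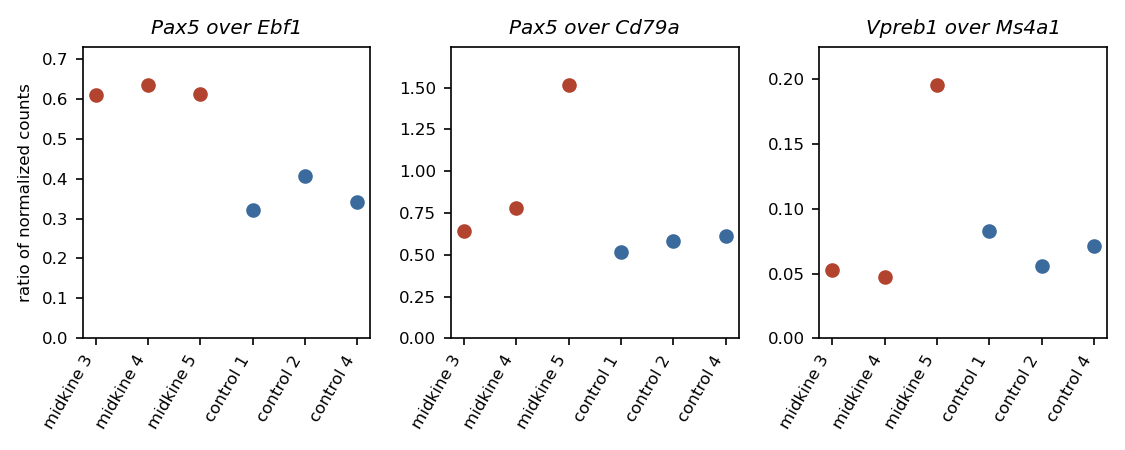
Ratio of the normalized counts of pairs of B cell genes in each library, for Pax5 over Ebf1, Pax5 over Cd79a and Vpreb1 over Ms4a1. Red points are midkine libraries and blue points are controls. Pax5 over Ebf1 lies at 0.611 to 0.635 with midkine and at 0.321 to 0.407 in controls, while midkine 5 stands alone in the other panels.

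Of 39 other genes of the B lineage, 18 rose and 2 fell without midkine 5, and 0 passed with all 6 libraries. Immunoglobulin constant regions showed a median of 0.76 on the log2 fold change scale over 6 genes, and B cell surface receptors 0.67 over 9, beside −0.0040 over all genes tested. B lineage transcription factors had −0.12 over 12, B cell receptor signalling 0.077 over 9, and the pre-B cell receptor and recombination list 0.054 over 3. These medians moved without midkine 5, to 0.10 for the transcription factors, 0.15 for signalling and 0.53 for the recombination list. With all 6 libraries edgeR also called 0 of the 39, against 0.0443% higher and 0.0295% lower of all genes. DESeq2 called 5 of them, against 3.97% higher and 1.95% lower. The 5 were Iglc1, Iglc2, Iglc3 and Pou2af1, which were higher, and Bcl11a, which was lower. The 18 and 2 called by limma without midkine 5 stand beside 9.86% higher and 8.53% lower of all genes.

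The lambda light chain genes Iglc2 and Iglc1 had the highest fold changes of the 5 lists with all 6 libraries. Iglc2 averaged 183 ± 12.6 normalized counts with midkine and 56.9 ± 23.4 in controls (SD, n = 3 each), a log2 fold change of 1.74 ± 0.288 SE (limma, adjusted p = 0.0757; 1.74 and 0.000143 without midkine 5). Iglc1 averaged 438 ± 136 with midkine and 145 ± 48.4 in controls, with a log2 fold change of 1.59 ± 0.306 SE (limma, adjusted p = 0.0788). Iglc3 averaged 133 ± 32.0 and Ighd, the delta heavy chain, 121 ± 19.1 with midkine, against 67.6 ± 15.4 for Iglc3 and 84.4 ± 18.1 for Ighd in controls. Igkc, the kappa light chain, had 2488, 2356 and 880 normalized counts in midkine 3, 4 and 5, against 1158, 1129 and 1253 in control 1, 2 and 4. Midkine 5 was the lowest of the 6 libraries for Igkc, as it was for Cd79a and Ms4a1. Its log2 fold change was 0.55 ± 0.363 SE (limma, adjusted p = 0.416) and 1.04 ± 0.0971 SE without midkine 5 (adjusted p = 5.53e-06). Igkc is given here after its values were seen. The 3 lambda constant regions are similar in sequence, so the split of reads between them is uncertain. All 6 genes of the list had a fold change above 0, as did 6720 of the 13543 genes tested. Of the 6, 4 did not overlap between the groups and were higher, against 15.5% of all genes. Without midkine 5, 5 of the 6 rose and 0 fell, against 9.86% higher and 8.53% lower of all genes.

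Of the surface receptors, 0 of 9 passed with all libraries. Without midkine 5, 7 rose and 0 fell, against 9.86% higher and 8.53% lower of all genes. Fcrla, a protein of the Fc receptor family found inside B cells, averaged 111 ± 10.3 normalized counts with midkine and 58.0 ± 25.7 in controls (n = 3 each). Siglecg, an inhibitory lectin, averaged 319 ± 77.4 with midkine and 195 ± 20.8 in controls. Its highest value, 400 normalized counts, was that of midkine 5. Cd72, a B cell co-receptor, had 254, 346 and 630 normalized counts in midkine 3, 4 and 5, against 174, 235 and 220 in control 1, 2 and 4. Unlike Cd79a and Ms4a1, it was highest in midkine 5, and its log2 fold change was 0.87 with all libraries and 0.51 without midkine 5. Fcer2a, the low-affinity IgE receptor CD23, averaged 24.6 ± 4.91 with midkine and 13.4 ± 4.86 in controls. Of the signalling genes, the scaffold Bank1 and the kinase Blk rose without midkine 5, and the other 7 did not pass. Bank1 averaged 110 ± 42.6 with midkine and 61.7 ± 4.22 in controls. Those 7 went both ways on average and include genes that myeloid cells also use, such as Btk, Plcg2 and Ptpn6. Btk had 747 ± 83.7 normalized counts with midkine and 828 ± 48.2 in controls. Plcg2 had 435 ± 35.3 with midkine and 486 ± 46.5 in controls, and Ptpn6 1968 ± 46.2 and 2242 ± 56.1. Lyn, also of the 7, had 1877 ± 243 with midkine and 1772 ± 93.8 in controls, and Syk 1783 ± 219 and 1623 ± 170.

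Transcription factors went both ways. Pou2af1, a coactivator of POU factors in B cells, averaged 387 ± 20.6 normalized counts with midkine and 209 ± 54.6 in controls (n = 3 each). Foxo1, a factor of early B cell development, averaged 236 ± 20.3 with midkine and 160.1 ± 31.4 in controls. Bcl11a, which plasmacytoid DCs and progenitors also express, averaged 849 ± 116 with midkine and 1384 ± 43.2 in controls, and Mef2c, shared with myeloid progenitors, averaged 1629 ± 498 with midkine and 2445 ± 181 in controls. With all libraries none of these 4 passed in limma, with adjusted p-values of 0.0881 for Pou2af1, 0.172 for Foxo1, 0.0881 for Bcl11a and 0.195 for Mef2c. In DESeq2 the adjusted p-values were 0.00969 for Pou2af1, 0.140 for Foxo1, 0.00668 for Bcl11a and 0.164 for Mef2c. Without midkine 5, Pou2af1 and Foxo1 rose and Bcl11a and Mef2c fell. In the recombination list, Il7r, the receptor for IL-7, averaged 1071 ± 490.0 with midkine and 949 ± 170 in controls, and Dntt, which adds bases at the joins, averaged 64.1 ± 33.1 with midkine and 50.8 ± 7.85 in controls. Rag2, the partner of Rag1, averaged 7.94 ± 4.64 with midkine and 11.2 ± 2.83 in controls. Il7r and Dntt rose without midkine 5, where Rag2 did not pass. Igll1 and Vpreb2 had no values among the gene symbols.

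**Figure D4:**
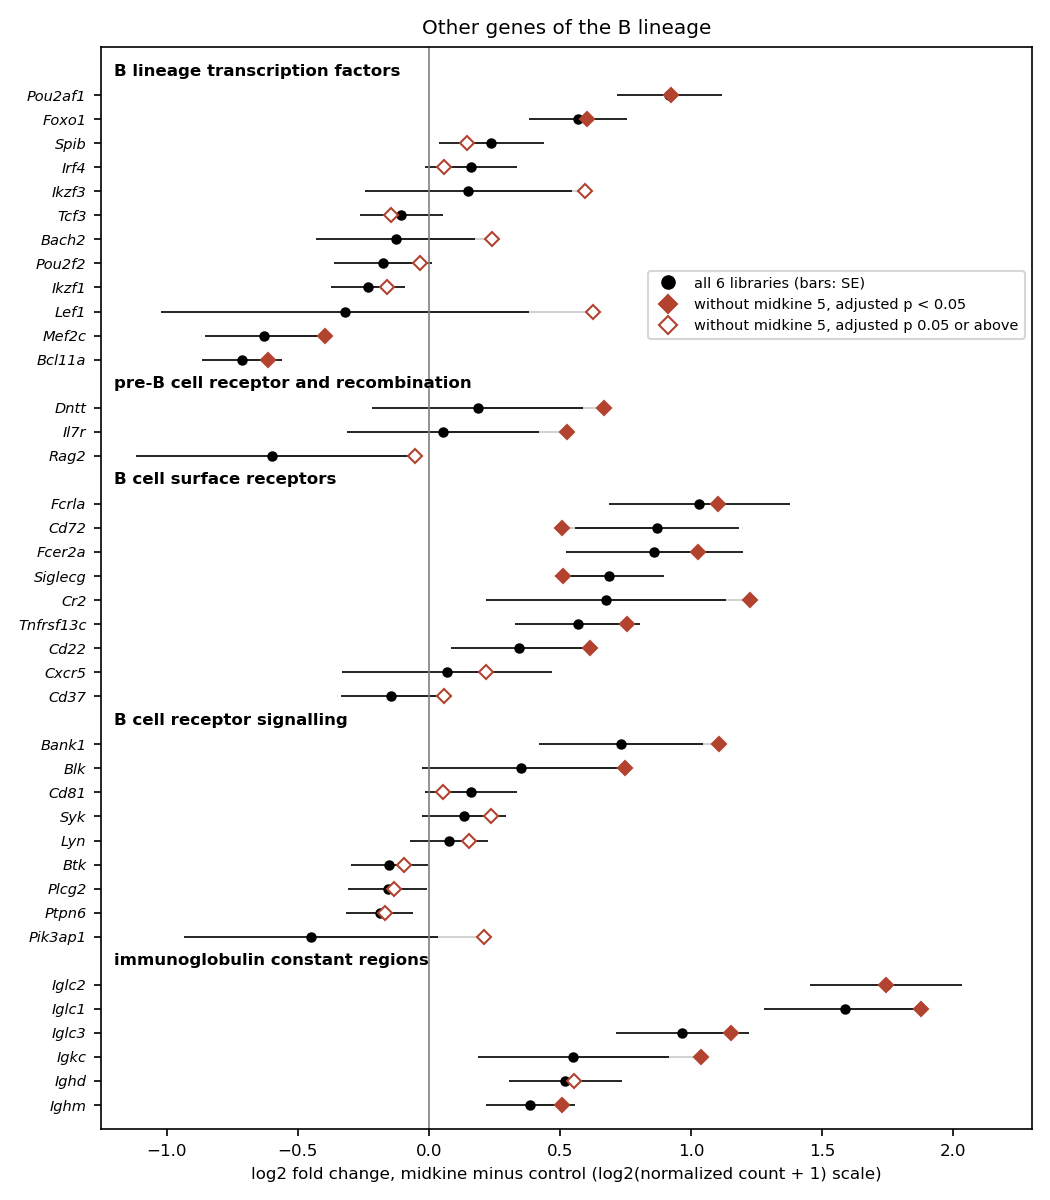
Log2 fold change, midkine minus control, of 39 further B lineage genes in 5 lists. Black points with SE bars are all 6 libraries, and diamonds leave out midkine 5, filled where the adjusted p was under 0.05. All 6 immunoglobulin genes and 8 of 9 surface receptors lie above 0 with all libraries, while transcription factors lie on both sides.

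Marker lists of other cells were measured beside the B cell genes. Over all 13543 genes tested, 6720 had a fold change above 0. Antibody-secreting cell genes summed to 1483 to 1952 normalized counts with midkine and 930.03 to 1123 in controls, and all 5 had a fold change above 0. Plasmacytoid DC genes, some of which B precursors also use, summed to 4563 to 4967 with midkine and 5739 to 6545 in controls, with 1 of 9 tested genes above 0. T cell genes summed to 115 to 204 with midkine and 148 to 169 in controls, with 3 of 6 tested genes above 0, and Cd3e and Cd3g had no values. Cd4 and Lck had the largest values of the T cell list in every library, while Cd3d averaged 4.79 with midkine and 6.37 in controls. Macrophage genes summed to 17574.5 to 20786 with midkine and 12261 to 13913 in controls, with 9 of 10 above 0, and neutrophil genes summed to 179951 to 193014 with midkine and 125900 to 140700 in controls, with 10 of 10 above 0. None of the lists was at 0 in any library. In midkine 5, the antibody-secreting, macrophage and neutrophil lists had medians of 1.20, 0.85 and 0.40 above the control mean. The 9 genes had a median of 0.034 there. Other B lineage lists varied in midkine 5, with medians of 0.52 for immunoglobulin constant regions and 0.19 for surface receptors. Transcription factors had −0.42, receptor signalling −0.20 and the recombination list −0.89. The part of other cell types in the B cell result was not tested.

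The 5 genes whose pattern over the 6 libraries was most like the mean standardized pattern of the 9 were Dusp3, Klhl12, Snx30, Nav2 and Mcpt8, with Pearson correlations of 0.990 to 0.995 among 10120 candidates. Dusp3, a phosphatase, had 1016, 941 and 664 normalized counts in midkine 3, 4 and 5, against 599, 722 and 604 in control 1, 2 and 4. Mcpt8, a basophil protease, had 259, 238 and 69.9 in midkine 3, 4 and 5, against 50.3, 102 and 61.1 in control 1, 2 and 4. With 6 libraries such correlations are descriptions, and the libraries share their groups.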

How the data were processed

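Per the labels' protocols, RNA was sequenced with Lexogen's QuantSeq 3′ kit, which reads near the poly(A) end, so values are not scaled to length. The deposited values are a signal, normalized counts per gene, and behave as counts the authors divided by 1 size factor per library. Tools named in the submitters' processing notes are TopHat2 2.0.10, HTSeq, DESeq2, Bowtie 1.0.0, FastQC 0.11.0 and SAMtools 0.1.19, with the build GRCm38 (mm10). Annotation, strand setting and gene filter: not given in the sources used here. Whole reads were recovered for 100% of values (tolerance 0.01 reads). A floor of 3 reads was at most 5.01e-05% of a library.

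The test was limma 3.58.1 in R 4.3.3 (lmFit, eBayes with trend) on log2(normalized count + 1) over all 6 libraries, two-sided, for the 13543 genes with a mean of at least 5. Alternatives included edgeR 4.0.16 and DESeq2 1.42.0 on recovered reads, where DESeq2 gave no adjusted p to 3894 genes. The functions were tested on simulated counts. Coordinates and exon overlaps came from GENCODE M21 (GRCm38). Members and lists were chosen with earlier results of these data known. Named genes were the 9 members, up to 4 genes per pathway list with the smallest p, every gene called in a list, and the 5 genes most like the members, leaving out Gm and Rik models and means under 20. Igkc, Blk, Lyn, Syk and the ratios were named outside or after these choices. A further gene of the lists is not reported here.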

Additional observations from a re-analysis of the deposited data

How the results depend on the processing

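Every one of the 9 genes kept a fold change above 0 under all 16 alternatives. The number of the 9 past the threshold, 0 in the main limma test, was 1 with DESeq2 (Pax5), 7 with edgeR without midkine 5 and 0 in the other settings that used all libraries. Leaving out 1 library at a time in limma gave 0 to 7, and the 7 came without midkine 5. Over all genes the count was 0 in the main test, 10 with a pseudocount of 5, 9 with no filter on low values, 7 with TMM scaling, 16 with quantile normalization, 10 with edgeR, 684 with DESeq2 and 2488 with edgeR without midkine 5, and 0 to 2492 leaving out 1 library at a time. Among the 39 further B lineage genes it was 5 with DESeq2, 21 with edgeR without midkine 5 and 0 to 20 leaving out 1 library. The cause of these differences was not tested. Over the alternatives the log2 fold change ranged from 0.95 to 1.32 for Pax5, 0.040 to 1.01 for Cd79a, 0.30 to 1.13 for Ms4a1, 0.16 to 0.52 for Ebf1, 0.43 to 0.85 for Cd79b, 0.36 to 0.70 for Blnk, 0.15 to 0.47 for Vpreb3, 0.15 to 0.33 for Rag1 and 0.64 to 0.93 for Vpreb1. edgeR without midkine 5 was added after seeing the data. No paired analysis was possible because the groups share only replicate number 4. With 3 libraries against 3, an exact permutation test of 1 gene cannot go below p = 0.1. Counting error alone is wide for Vpreb1, with 22 to 52 reads per library, and for Rag1, with 42 to 59.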

Other observations

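For some pairs with Cd79a or Ms4a1, midkine 5 held other proportions than the other 5 libraries. The ratio of Pax5 to Cd79a was 0.642, 0.779 and 1.52 in midkine 3, 4 and 5, against 0.514, 0.583 and 0.614 in control 1, 2 and 4. The ratio of Cd79b to Cd79a was 1.22, 1.07 and 2.70 in midkine 3, 4 and 5, against 1.26, 1.11 and 1.56 in control 1, 2 and 4, although their proteins pair in 1 receptor. Vpreb1 to Ms4a1 stood at 0.0528, 0.0472 and 0.195 in midkine 3, 4 and 5, against 0.0830, 0.0558 and 0.0710 in control 1, 2 and 4. Rag1 to Vpreb3 stood at 0.217, 0.263 and 0.331 in midkine 3, 4 and 5, against 0.3125, 0.207 and 0.294 in control 1, 2 and 4. These pairs were chosen after their values were seen and are given as values. For Rag1 to Vpreb3, midkine 5 was close to control 1.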
